A study of Mus musculus with 12 samples.

Results

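The 10 genes described here carry growth hormone signals in hepatocytes. They are the receptor gene Ghr, the transcription factor genes Stat5a, Stat5b and Stat3, the secreted products Igf1 and Igfals, the feedback inhibitors Socs2, Cish and Socs3, and the repressor gene Bcl6. They were picked by symbol from a table of 54532 genes, and each symbol matched exactly 1 row. The 12 RNA-seq libraries came from primary hepatocytes of 6-week-old mice, 3 libraries in each of 4 groups: hepatocyte-specific G3bp1 knockout (HKO) cells given PA (HKO_PA) or BSA (HKO_BSA), and G3bp1-Flox (Flox) cells given PA (Flox_PA) or BSA (Flox_BSA). The question of the series was the role in NASH, a fatty and inflamed liver disease, of G3BP1, which binds RNA and helps build stress granules. The labels do not spell out PA or BSA, and neither the Cre driver, the dose, the duration nor whether the 3 libraries of a group came from different mice is given in the sources used here, so the p-values reflect the spread among libraries alone, which may be technical.

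Growth hormone binds its receptor on hepatocytes and activates the kinase JAK2, which phosphorylates STAT5. STAT5B is the main form in liver, and with STAT5A it switches on Igf1, Igfals, Socs2 and Cish. IGF-I circulates as the growth factor that carries much of the hormone's effect, and the acid-labile subunit encoded by Igfals holds it in a large complex in blood. SOCS2 and CISH damp the receptor in return. SOCS3 is induced mainly through STAT3 by cytokines of the IL-6 family and also blocks growth hormone signalling. BCL6 is a repressor that recognises sites resembling those of STAT5, and STAT5 represses its gene. In rodent liver the hormone's secretion pattern also sets the sex-biased genes, among them the major urinary proteins.

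STAT proteins bind the palindrome TTCNNNGAA, which reads the same on both strands. RefSeq promoter windows (GRCm38.p6, 250 bases before to 50 after an annotated transcript start, 300 bases in all) were found for 9 of the 10 genes, 15 windows in all. The palindrome occurred in 6 windows of 4 genes, namely Bcl6, Cish, Igfals and Socs3, against 8.3% of the 32851 windows in the whole table. Bcl6 had 3 matches in 1 window and Cish 2, while 0.46% of all windows held at least 2. The Cish, Bcl6 and Socs3 windows are shown because Cish and Bcl6 held the repeated matches and Socs3 had the largest difference between genotypes among the 10 genes. Capitals mark the palindrome.
Cish, chr9:107296409-107296708, plus strand: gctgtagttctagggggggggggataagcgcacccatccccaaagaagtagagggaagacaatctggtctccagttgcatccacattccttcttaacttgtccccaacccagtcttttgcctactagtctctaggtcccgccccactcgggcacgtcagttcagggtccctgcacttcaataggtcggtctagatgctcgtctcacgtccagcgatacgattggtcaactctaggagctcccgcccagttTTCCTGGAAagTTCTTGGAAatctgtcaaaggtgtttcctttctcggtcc
Bcl6, chr16:23981234-23981533, minus strand: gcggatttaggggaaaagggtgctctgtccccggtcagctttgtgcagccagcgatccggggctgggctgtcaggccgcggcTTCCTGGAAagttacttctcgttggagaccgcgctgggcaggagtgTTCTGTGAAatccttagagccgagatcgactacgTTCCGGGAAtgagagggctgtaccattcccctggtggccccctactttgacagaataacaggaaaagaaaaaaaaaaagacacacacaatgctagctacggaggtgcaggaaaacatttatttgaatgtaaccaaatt
Socs3, chr11:117969317-117969616, minus strand: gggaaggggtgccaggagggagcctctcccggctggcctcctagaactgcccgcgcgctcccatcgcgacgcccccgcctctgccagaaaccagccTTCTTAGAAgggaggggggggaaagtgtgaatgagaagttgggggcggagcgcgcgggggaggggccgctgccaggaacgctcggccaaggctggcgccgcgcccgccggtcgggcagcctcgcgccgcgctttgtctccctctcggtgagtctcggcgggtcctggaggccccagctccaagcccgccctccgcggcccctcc
The Cish matches, TTCCTGGAA and TTCTTGGAA, began at an annotated transcript start inside the gene's span and 11 bases after it. Those of Bcl6, TTCCTGGAA, TTCTGTGAA and TTCCGGGAA, began 168, 122 and 88 bases before a start that lies inside the gene's span, and its other window held TTCTCAGAA. Socs3 held TTCTTAGAA, which began 154 bases before an annotated start that also lies inside the gene's span. The Igfals matches lay in windows around transcript starts at 24877844 and 24878231, upstream of the gene's start as deposited (24878770). The Igfals window around 24878747, nearest that start, held none. No match was found in the windows of Ghr, Igf1, Stat3, Stat5a and Stat5b, which says only that these letters are not in those windows.

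**Figure D1:**
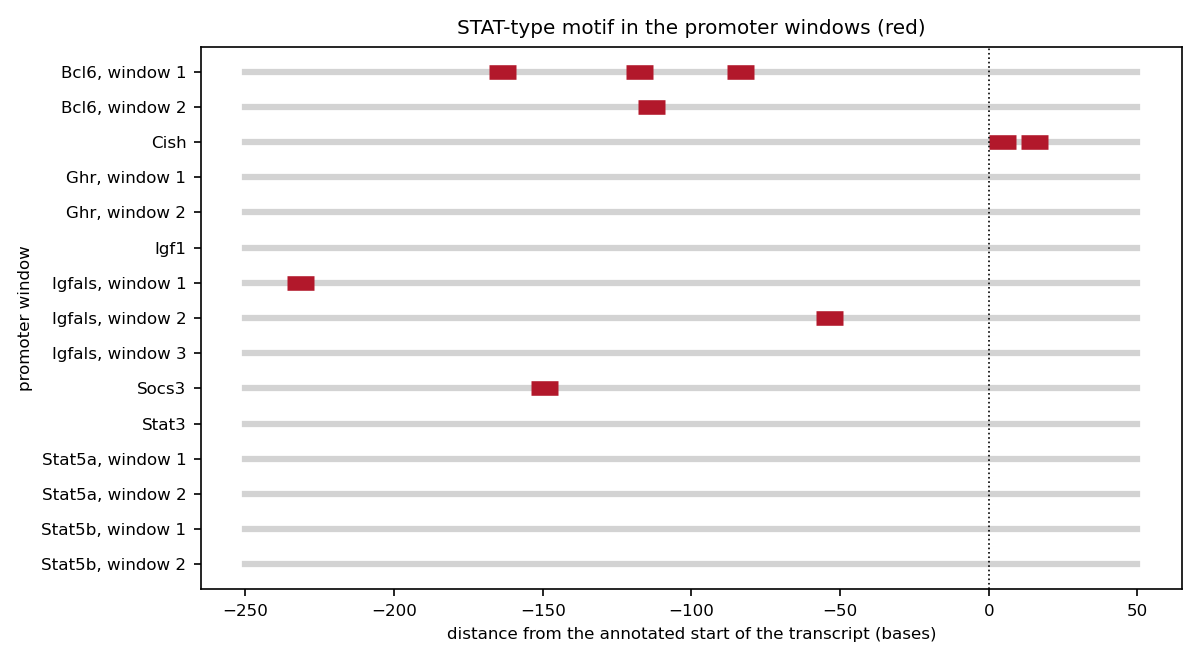
Position of TTCNNNGAA (red) in each of the 15 RefSeq promoter windows (grey), with the distance from the annotated transcript start in bases on the x axis and the windows on the y axis. Bcl6 window 1 holds 3 matches and Cish holds 2, while the 8 windows of Ghr, Igf1, Stat3, Stat5a and Stat5b hold none.

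Values are FPKM, that is reads per kilobase of gene scaled to library size, as the authors deposited them. Differences are in log2(FPKM + 1) with their standard error (SE) from limma and p-values adjusted by Benjamini-Hochberg over the 9743 genes that averaged 1 FPKM or more. An adjusted p under 0.05 counts as passing. This scale understates the difference of genes that are near or under 1 FPKM in a group. For Socs2, Bcl6 and Stat5a in PA the ratio or percentage of mean FPKM is given too. The libraries held 15.02 to 18.42 M reads in genes. All 10 genes were tested, but Socs2 reached the mean of 1 FPKM through the HKO groups and Bcl6 through the Flox groups.

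G3bp1 measured 7.027 to 8.497 FPKM in the 6 HKO libraries and 37.74 to 45.72 FPKM in the 6 Flox libraries. The female-specific transcript Xist was listed at 0 in all libraries and the Y-linked Ddx3y was above 0 in each (0.917 to 2.964 FPKM in HKO, 1.213 to 4.013 FPKM in Flox). Markers of other cell types also differed: all 15 tested macrophage markers were lower in HKO, and the summed FPKM of all 16 was 123.9 to 153.7 in HKO_PA and 84.74 to 115.8 in HKO_BSA, against 1664 to 1892 in Flox_PA and 1969 to 2106 in Flox_BSA. None of the macrophage markers was at 0 in all 3 libraries of a group. The filter used the mean over all 12 libraries, so a marker low in HKO could be tested through the Flox groups alone. The count of tested markers that were lower in HKO is therefore not independent of that filter. Neutrophil markers were lower too, summing to 0.2079 to 0.7376 FPKM in HKO and 17.33 to 25.77 FPKM in Flox. In bulk RNA, fewer cells of a type and less RNA per cell cannot be told apart. Of 4 tested endothelial markers 2 were lower in HKO with PA and 3 with BSA, of 2 tested cholangiocyte markers 2 and 1 were higher, and no stellate cell or lymphocyte marker reached the filter. Of 9 hepatocyte markers, 4 were higher in HKO with PA and 3 with BSA and none was lower, with a median log2 difference of 0.36 in PA and 0.17 in BSA. Their summed FPKM was 11150 to 20610 in HKO_PA and 10190 to 20260 in HKO_BSA, against 7298 to 8064 in Flox_PA and 7839 to 8553 in Flox_BSA. The PA call of Alb (limma adjusted p = 0.0409) was lost without HKO_PA 1 (0.173), HKO_PA 2 (0.0552) or any of the Flox_PA libraries (0.064 to 0.12). The BSA call of Ttr was lost without Flox_BSA 2 (0.0515). Of all tested genes, 16.9% were higher and 18.8% lower in HKO with PA, and 9.63% higher and 10.8% lower with BSA. HKO libraries varied more than Flox libraries (median SD of a gene 0.223 in HKO_PA and 0.21 in HKO_BSA, 0.114 in Flox_PA and 0.104 in Flox_BSA, on the log2 scale), and HKO_PA 1 and HKO_BSA 1 stood at opposite ends of the second principal component (34.3 and -26.7). Mitochondrial transcripts took 4.1 to 8.203% of reads in HKO libraries, with HKO_BSA 1 lowest and HKO_PA 1 at 8.158%, and 2.211 to 4.339% in Flox libraries. The part of the cell type markers and of the mitochondrial transcripts in the genotype differences was not tested.

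Igf1 and Socs3 differed most between the genotypes and in opposite directions. In PA, 3 genes were higher in HKO (Ghr, Igf1 and Socs2), 5 were lower (Socs3, Stat3, Stat5a, Stat5b and Bcl6) and 2 did not pass (Igfals and Cish), where 35.7% of all tested genes passed, 16.9% higher and 18.8% lower. In BSA, the same 3 were higher, Socs3 and Bcl6 were lower and 5 did not pass, where 20.5% of all tested genes passed, 9.63% higher and 10.8% lower. The median log2 difference of the 10 genes was -0.25 in PA and 0.22 in BSA, against 0 and 0.04 for all tested genes. In PA the 3 HKO libraries all lay above the 3 Flox libraries for 4 of the 10 genes and below them for 5, each of which 26% of tested genes did. In BSA this held for 4 and 3 of the 10, against 19.7% and 18% of tested genes.

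**Figure D2:**
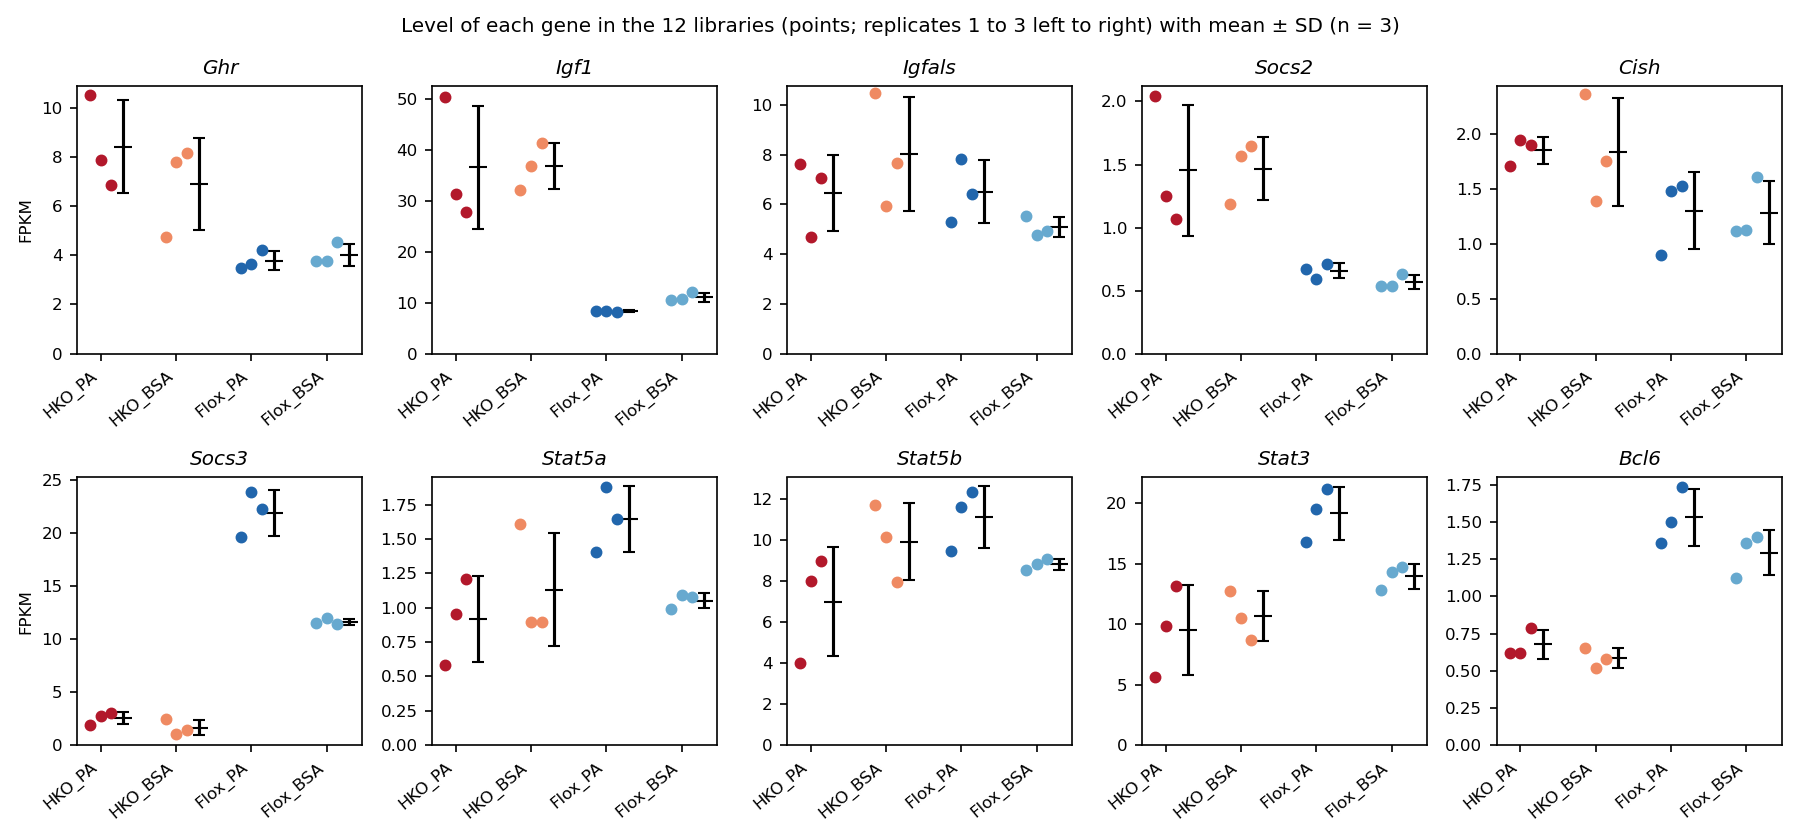
FPKM (y axis) of each of the 10 genes in the 12 libraries (points) by group (x axis), with mean ± SD (n = 3) beside them. Ghr, Igf1 and Socs2 lie higher in every HKO library than in any Flox library, and Socs3 and Bcl6 lie lower.

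The receptor gene Ghr (ENSMUSG00000055737, chromosome 15, 3317760 to 3583492 in GRCm38, minus strand) was higher in HKO. It measured 10.53, 7.891 and 6.846 FPKM in HKO_PA and 4.747, 7.784 and 8.146 FPKM in HKO_BSA, against 3.467, 3.651 and 4.206 FPKM in Flox_PA and 3.78, 3.762 and 4.54 FPKM in Flox_BSA. Every HKO library lay above every Flox library, although HKO_BSA 1 was close to Flox_BSA 3. HKO averaged 8.42 ± 1.9 FPKM against 3.77 ± 0.385 FPKM in Flox with PA (SD, n = 3 each; log2 0.96, SE 0.19, limma adjusted p = 0.00156). With BSA HKO averaged 6.89 ± 1.87 FPKM against 4.03 ± 0.444 FPKM in Flox (log2 0.62, SE 0.19, limma adjusted p = 0.0298). The BSA call was lost without HKO_BSA 2 (adjusted p = 0.0968), HKO_BSA 3 (0.132), Flox_BSA 1 (0.102) or Flox_BSA 2 (0.106), without the filter on low values (0.066) and with limma-voom on reads (0.0591).

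Stat5b (ENSMUSG00000020919, chromosome 11, 100780731 to 100850724, minus strand), the main STAT5 gene of liver, passed as lower in HKO with PA, a call that rested on single libraries. It measured 4.004, 8.001 and 8.99 FPKM in HKO_PA and 11.69, 10.13 and 7.949 FPKM in HKO_BSA, against 9.453, 11.59 and 12.33 FPKM in Flox_PA and 8.526, 8.85 and 9.063 FPKM in Flox_BSA. HKO_PA 1 was far below the rest and the other 2 HKO_PA libraries were just under the lowest Flox_PA library, while the BSA groups overlapped. HKO averaged 7 ± 2.64 FPKM against 11.1 ± 1.5 FPKM in Flox with PA (SD, n = 3 each; log2 -0.65, SE 0.22, limma adjusted p = 0.0341). With BSA the difference was 0.14 on the log2 scale with a 95% interval of -0.34 to 0.62 (limma adjusted p = 0.712). Without HKO_PA 1 the PA difference shrank to -0.35 (adjusted p = 0.126), and the call was also lost without Flox_PA 2 (0.0946) or Flox_PA 3 (0.117), without the filter (0.0954), with only the groups compared (0.0772) and with the length trend removed (0.0505).

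Its neighbour Stat5a (ENSMUSG00000004043, chromosome 11, 100859351 to 100885169, plus strand), the second STAT5 gene, was at a lower level and moved likewise. It measured 0.5843, 0.9551 and 1.207 FPKM in HKO_PA and 1.608, 0.8981 and 0.8934 FPKM in HKO_BSA, against 1.405, 1.882 and 1.649 FPKM in Flox_PA and 0.9887, 1.09 and 1.08 FPKM in Flox_BSA. The PA groups did not overlap and the BSA groups did. HKO with PA held 55.6% of the mean Flox level (log2 -0.48, SE 0.15, limma adjusted p = 0.0258), and in BSA the log2 difference was 0.04 with a 95% interval of -0.29 to 0.36 (limma adjusted p = 0.891). The PA call was lost without HKO_PA 1 (log2 -0.34, adjusted p = 0.114), Flox_PA 2 (0.0952) or Flox_PA 3 (0.0688), without the filter (0.0718), with quantile normalization (0.0788) and with the length trend removed (0.0921). Per kilobase, Stat5b ran 6.85 to 11.3 times above Stat5a in HKO libraries and 6.16 to 8.62 times in Flox libraries.

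Stat3 (ENSMUSG00000004040, chromosome 11, 100885098 to 100939540, minus strand), which carries IL-6 family signals, was lower in HKO with PA. It measured 5.664, 9.817 and 13.13 FPKM in HKO_PA and 12.77, 10.55 and 8.708 FPKM in HKO_BSA, against 16.83, 19.52 and 21.15 FPKM in Flox_PA and 12.8, 14.31 and 14.75 FPKM in Flox_BSA. All HKO libraries lay below the Flox libraries of the same treatment, in BSA by a gap of 0.03 FPKM between HKO_BSA 1 and Flox_BSA 1. HKO with PA held 49.8% of the Flox mean (log2 -1, SE 0.22, limma adjusted p = 0.00406), and leaving out both HKO libraries numbered 1 gave -0.70 (adjusted p = 0.00185). With BSA it held 76.5% and did not pass (log2 -0.37, SE 0.22, limma adjusted p = 0.284), but it passed without both HKO libraries numbered 1 (log2 -0.50, adjusted p = 0.0147). The 3' ends of Stat3 and Stat5a overlap by 72 bases on opposite strands, and no source used here says whether the counting used strand, so reads from those bases cannot be told apart.

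The ratio of the STAT3 to the STAT5B transcript per kilobase was 1.23 to 1.46 in HKO_PA and 1.04 to 1.1 in HKO_BSA, against 1.68 to 1.78 in Flox_PA and 1.5 to 1.63 in Flox_BSA. The 4 groups did not overlap in this ratio, which was lower in all 6 HKO libraries than in any Flox library. It was chosen after the values were seen and carries no test.

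Igf1 (ENSMUSG00000020053, chromosome 10, 87858265 to 87937042, plus strand), which encodes the circulating growth factor, was higher in HKO under both treatments. It measured 50.41, 31.41 and 27.81 FPKM in HKO_PA and 32.18, 36.87 and 41.24 FPKM in HKO_BSA, against 8.4, 8.459 and 8.189 FPKM in Flox_PA and 10.46, 10.68 and 12.1 FPKM in Flox_BSA. The lowest HKO library lay far above the highest Flox library, and the 3 Flox_PA libraries were nearly alike. HKO averaged 36.5 ± 12.1 FPKM against 8.35 ± 0.142 FPKM in Flox with PA (SD, n = 3 each), a ratio of 4.38 (log2 1.96, SE 0.18, limma adjusted p = 1.76e-06). With BSA HKO averaged 36.8 ± 4.53 FPKM against 11.1 ± 0.893 FPKM in Flox, a ratio of 3.32 (log2 1.64, SE 0.18, limma adjusted p = 1.14e-05). Both calls held in each of the 17 alternatives run for each comparison, with log2 differences of 1.71 to 2.13 in PA and 1.55 to 1.82 in BSA. Igf1 had 4160 to 7050 reads in HKO libraries and 1417 to 2147 reads in Flox libraries, and its antisense transcript Igf1os averaged 4.17 reads per library.

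Igfals (ENSMUSG00000046070, chromosome 17, 24878770 to 24882008, plus strand), whose product holds IGF-I in the large complex of blood, was not shown to differ between genotypes. It measured 7.615, 4.7 and 7.058 FPKM in HKO_PA and 10.47, 5.949 and 7.684 FPKM in HKO_BSA, against 5.293, 7.814 and 6.435 FPKM in Flox_PA and 5.543, 4.776 and 4.92 FPKM in Flox_BSA. The PA groups overlapped, and in BSA all 3 HKO libraries lay above the Flox libraries. The log2 difference was -0.02 with a 95% interval of -0.45 to 0.41 in PA (limma adjusted p = 0.95) and 0.54 with an interval of 0.11 to 0.97 in BSA (adjusted p = 0.0744). The BSA difference passed without HKO_BSA 2 (log2 0.72, adjusted p = 0.0275), under quantile normalization (0.0473) and with array weights (0.00447).

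Among the inhibitors, Socs2 (ENSMUSG00000020027, chromosome 10, 95385362 to 95417180, minus strand), a direct STAT5 target that damps the receptor, was higher in HKO like Igf1. It measured 2.046, 1.249 and 1.07 FPKM in HKO_PA and 1.183, 1.571 and 1.647 FPKM in HKO_BSA, against 0.6723, 0.5955 and 0.7096 FPKM in Flox_PA and 0.5372, 0.5346 and 0.6327 FPKM in Flox_BSA. No HKO library overlapped a Flox library, and these levels stood on 154 to 271 reads in HKO and 95 to 119 reads in Flox. The ratio of mean FPKM was 2.21 in PA (log2 0.55, SE 0.14, limma adjusted p = 0.00845) and 2.58 in BSA (log2 0.65, SE 0.14, adjusted p = 0.0038). Both calls held in all 17 alternatives each.

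Cish (ENSMUSG00000032578, chromosome 9, 107296026 to 107302784, plus strand), the other STAT5-induced inhibitor, did not pass. Its paired palindromes lie at an annotated transcript start inside this span. It measured 1.704, 1.937 and 1.898 FPKM in HKO_PA and 2.359, 1.383 and 1.751 FPKM in HKO_BSA, against 0.8959, 1.474 and 1.523 FPKM in Flox_PA and 1.115, 1.12 and 1.609 FPKM in Flox_BSA. The PA groups did not overlap and the BSA groups did. The log2 difference was 0.32 with a 95% interval of -0.01 to 0.65 in PA (limma adjusted p = 0.115) and 0.30 with an interval of -0.02 to 0.63 in BSA (adjusted p = 0.188). In PA it passed under quantile normalization (adjusted p = 0.0497), array weights (0.0417) and removal of the length trend (0.037), and in BSA with array weights (0.0108).

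Socs3 (ENSMUSG00000053113, chromosome 11, 117966079 to 117970047, minus strand), the cytokine-induced inhibitor, was the most reduced of the 10 genes. It measured 1.905, 2.746 and 3.023 FPKM in HKO_PA and 2.474, 1.053 and 1.423 FPKM in HKO_BSA, against 19.59, 23.89 and 22.25 FPKM in Flox_PA and 11.51, 11.98 and 11.45 FPKM in Flox_BSA. All HKO libraries lay far below all Flox libraries, with 48 to 132 reads against 593 to 1168. HKO held 11.7% of the Flox mean in PA (log2 -2.70, SE 0.18, limma adjusted p = 5.2e-08) and 14.2% in BSA (log2 -2.29, SE 0.18, adjusted p = 2.61e-07). Both calls held in all 17 alternatives each. Macrophage and neutrophil markers were lower in the same libraries, and their part in this difference was not tested.

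Bcl6 (ENSMUSG00000022508, chromosome 16, 23965052 to 23988852, minus strand), the repressor that STAT5 itself represses, was lower in HKO. It measured 0.6221, 0.622 and 0.7907 FPKM in HKO_PA and 0.654, 0.5207 and 0.5793 FPKM in HKO_BSA, against 1.357, 1.5 and 1.739 FPKM in Flox_PA and 1.123, 1.361 and 1.4 FPKM in Flox_BSA. The genotypes did not overlap, with 55 to 80 reads in HKO and 144 to 205 reads in Flox. HKO held 44.3% of the Flox mean in PA (log2 -0.59, SE 0.10, limma adjusted p = 0.000798) and 45.2% in BSA (log2 -0.53, SE 0.10, adjusted p = 0.00209). The BSA call was lost under quantile normalization (log2 -0.26, adjusted p = 0.0903). Immune cells express Bcl6, and the part of the lower macrophage and neutrophil markers in this difference was not tested.

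**Figure D3:**
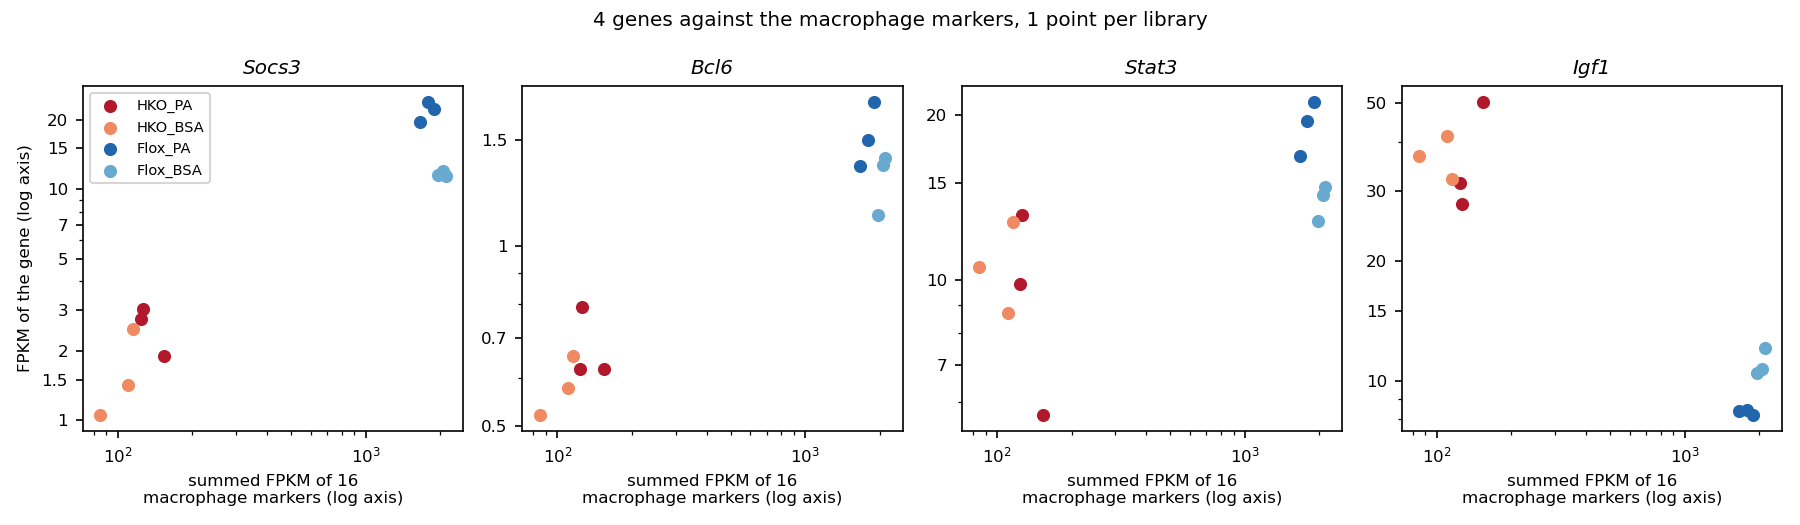
FPKM of Socs3, Bcl6, Stat3 and Igf1 (y axes, log scale) against the summed FPKM of 16 macrophage markers (x axes, log scale), 1 point per library coloured by group. HKO libraries sit at 84.74 to 153.7 and Flox libraries at 1664 to 2106 on the x axis, so genotype and marker level separate the same libraries, and the points of Igf1 run opposite to those of Socs3.

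Levels per kilobase show how the order of the axis differed. In HKO_BSA Igf1 was the highest of the 10 genes and Socs3 had rank 7, while in Flox_BSA Stat3 was highest, Socs3 had rank 2 and Igf1 rank 3. The Flox_BSA levels of Socs3 (11.45 to 11.98 FPKM) and Igf1 (10.46 to 12.1 FPKM) overlapped, as did those of Bcl6 and Cish. In HKO_BSA the levels of Stat3, Stat5b and Igfals overlapped, and those of Ghr overlapped Stat5b and Igfals. Cish, Socs3, Socs2 and Stat5a overlapped as well. Igf1 exceeded Socs3 by 9.2 to 35 times in HKO libraries, while the ratio was 0.354 to 1.06 in Flox libraries. These genes differed most between the genotypes and in opposite directions, so their ratio had to separate the genotypes. It carries no test.

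The next question was what PA does to these genes. In HKO none of the 10 passed by limma, 2 had an unadjusted p under 0.05 and limma-voom also called 0, where 2.94% of all tested genes passed, 1.68% higher and 1.25% lower. In Flox only Socs3 passed, where 2.21% of all tested genes did, 1.29% higher and 0.913% lower. The median log2 difference was -0.04 in HKO and 0.22 in Flox, against 0 and 0.01 for all tested genes. In Flox the 3 PA libraries lay above the BSA libraries for Socs3, Stat5a, Stat5b and Stat3 and below them for Igf1, and 22.1% and 16.9% of tested genes did so. In HKO all 10 genes overlapped between PA and BSA, where 9.1% of tested genes lay wholly above and 9.1% wholly below.

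Socs3 rose in Flox with PA to 21.9 ± 2.17 FPKM, against 11.6 ± 0.291 FPKM with BSA (SD, n = 3 each; log2 0.85, SE 0.18, limma adjusted p = 0.0283). The summed macrophage markers were lower with PA in Flox (1664 to 1892 FPKM, against 1969 to 2106 FPKM with BSA). The summed neutrophil markers were 19.59 to 25.77 FPKM with PA and 17.33 to 21.48 FPKM with BSA, and 1 of the 2 tested, Csf3r, rose with PA (log2 0.62, limma adjusted p = 0.0113), a call lost without Flox_PA 2 (0.0731), Flox_PA 3 (0.0676) or Flox_BSA 2 (0.0594). The part of these markers in the Socs3 difference was not tested. The Socs3 call was lost without Flox_PA 2 (adjusted p = 0.156), Flox_PA 3 (0.119), Flox_BSA 1 (0.124), Flox_BSA 2 (0.103) or Flox_BSA 3 (0.0881), while the log2 difference stayed between 0.79 and 0.93 in the 18 alternatives. In HKO it averaged 2.56 ± 0.582 FPKM with PA and 1.65 ± 0.737 FPKM with BSA and did not pass (log2 0.45, SE 0.18, limma adjusted p = 0.185), but it passed without HKO_BSA 1 (log2 0.66, adjusted p = 0.0354) and when both HKO libraries numbered 1 were left out (log2 0.80, adjusted p = 0.00304).

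The STAT genes had higher values in Flox with PA without passing. Stat3 averaged 19.2 ± 2.19 FPKM with PA and 14 ± 1.02 FPKM with BSA in Flox (log2 0.43, limma adjusted p = 0.361), and Stat5a 1.65 ± 0.238 and 1.05 ± 0.056 FPKM (log2 0.36, limma adjusted p = 0.267). Both passed when the fit held the Flox libraries alone (adjusted p = 0.0232 for Stat3 and 0.0456 for Stat5a) and without both HKO libraries numbered 1 (0.0402 and 0.0376). Igf1 averaged 8.35 ± 0.142 FPKM with PA and 11.1 ± 0.893 FPKM with BSA in Flox (log2 -0.37, limma adjusted p = 0.34), and passed in the same fits (0.022 and 0.0212). In HKO Stat5b averaged 7 ± 2.64 FPKM with PA and 9.92 ± 1.88 FPKM with BSA (log2 -0.50, 95% interval -0.97 to -0.02, limma adjusted p = 0.22).

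Whether PA acted differently in the genotypes was tested as the PA effect in HKO minus that in Flox. None of the 10 genes passed by limma, where 0.267% of all tested genes did (0.164% higher, 0.103% lower), 2 had an unadjusted p under 0.05 and limma-voom called 0. Those 2 were Stat5b, with a difference of effects of -0.79 on the log2 scale (95% interval -1.47 to -0.12, limma adjusted p = 0.232), and Stat5a, with -0.51 (95% interval -0.97 to -0.06, limma adjusted p = 0.25). The STAT5 genes thus passed between genotypes in PA and not in BSA, but a difference between the treatments was not shown.

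**Figure D4:**
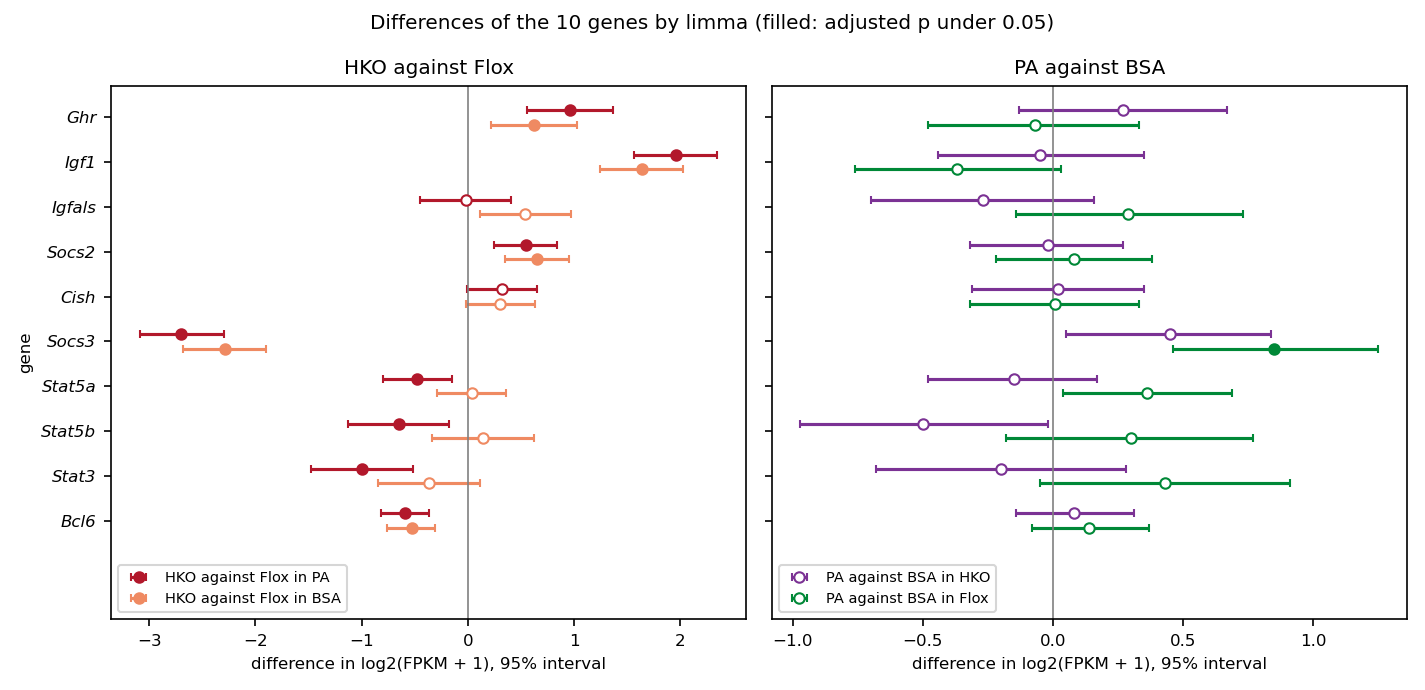
Difference in log2(FPKM + 1) with its 95% interval (x axis) for each of the 10 genes (y axis), HKO against Flox on the left and PA against BSA on the right, with filled points for a limma adjusted p under 0.05. Igf1 (1.96 and 1.64) and Socs3 (-2.70 and -2.29) stand farthest from 0 on the left, and Socs3 in Flox (0.85) is the one filled point on the right.

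Within HKO, single libraries ordered several of these genes together. HKO_PA 1 had the highest Ghr, Igf1 and Socs2 of the HKO_PA libraries and the lowest Stat5a, Stat5b, Stat3 and Socs3. HKO_BSA 1 had the lowest Ghr, Igf1 and Socs2 of the HKO_BSA libraries and the highest Stat5a, Stat5b, Stat3, Socs3, Bcl6, Cish and Igfals. These are the libraries at the ends of the second principal component. Without both of them Ghr, Igf1 and Socs2 were still higher and Socs3 and Bcl6 still lower in HKO under each treatment, with log2 differences of 1.71 and 1.73 for Igf1 and -2.56 and -2.5 for Socs3 in PA and BSA.

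Genes whose levels followed those of the axis over the 12 libraries were ranked by Pearson's r of log2(FPKM + 1), which mainly reflects the separation of the genotypes and carries no test. Igf1 was most like Mup20 (r = 0.991) and Mup3 (r = 0.99), which encode major urinary proteins, followed by the calcium-binding protein gene S100a6 (r = 0.984). Socs2 was most like Hsd17b13 (r = 0.986), which encodes a lipid droplet enzyme, Glyat, which encodes glycine N-acyltransferase (r = 0.981), and the thymidylate synthase gene Tyms (r = 0.97). Ghr was most like Mrpl42 (r = 0.99), Chchd3 (r = 0.99) and Mrpl18 (r = 0.985), all of mitochondrial proteins. Socs3 was most like the adenosine receptor gene Adora2a (r = 0.991), the prostaglandin E synthase gene Ptges (r = 0.991) and H2-T-ps (r = 0.99). Bcl6 was most like Abr, Ecm1 and Pdzrn3 (r = 0.981 each) and Stat3 was most like Kctd10 (r = 0.989), Sh3pxd2b and Abl1 (r = 0.985 each). The r of Stat5b reached 0.99 with Ptprf, 0.989 with Abca2 and 0.988 with Flii, and that of Stat5a 0.975 with Mapkapk3, 0.97 with Pklr and 0.969 with Pgam1. The best r of Igfals was 0.956 (Prodh2, then Stk16 at 0.954 and Dact2 at 0.946) and that of Cish 0.912 (Gpn3, then Etnk2 at 0.891 and Thnsl2 at 0.884).

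Other growth hormone targets were described from lists drawn up by sex bias in mouse liver. Of 17 male-biased targets 11 were tested. The counts of these and the following lists stand beside 16.9% higher and 18.8% lower of all tested genes in PA, and 9.63% higher and 10.8% lower in BSA. In PA 7 were higher in HKO, 1 was lower and 3 did not pass (median log2 0.99), and in BSA 5 were higher, 2 lower and 4 did not pass (median log2 0.73). Mup7 averaged 1780 ± 223 FPKM in HKO_PA and 1640 ± 504 FPKM in HKO_BSA, against 75.2 ± 18.8 FPKM in Flox_PA and 109 ± 14.4 FPKM in Flox_BSA (log2 4.57, SE 0.23, limma adjusted p = 2.28e-09 in PA, and log2 3.85, SE 0.23, adjusted p = 9.3e-09 in BSA). Mup20 was higher by 3.13 and Mup3 by 2.5 in PA and by 2.19 and 1.89 in BSA on the log2 scale. The major urinary protein genes are near-identical copies, so how reads were shared among them is uncertain. Ugt2b1, a glucuronosyltransferase gene, was higher in PA (log2 2.03, limma adjusted p = 0.000799). In BSA the bile acid hydroxylase gene Cyp7b1 was lower (log2 -1.14, limma adjusted p = 0.0209), a call that was lost without HKO_BSA 1 (0.0529), Flox_BSA 2 (0.0646) or Flox_BSA 3 (0.0664).

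**Figure D5:**
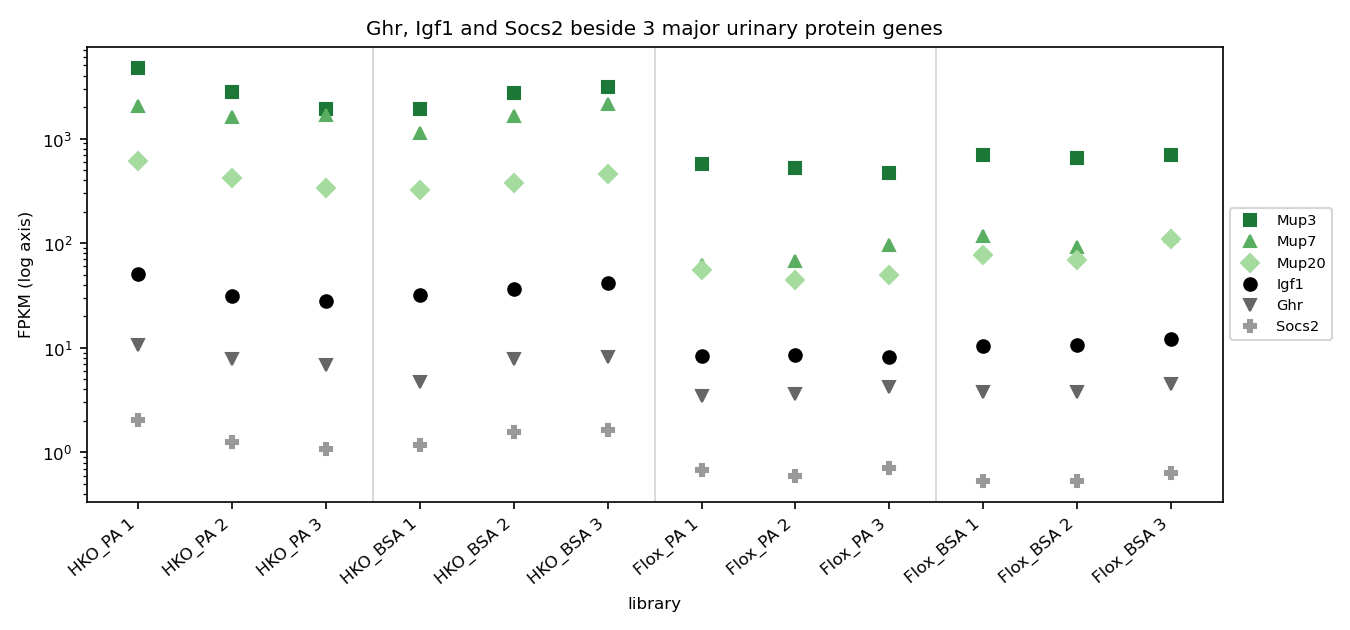
FPKM (y axis, log scale) of Ghr, Igf1 and Socs2 and of 3 major urinary protein genes in each of the 12 libraries (x axis). All 6 genes lie higher in the 6 HKO libraries than in the 6 Flox libraries, and HKO_PA 1 is the highest HKO library for Igf1, Socs2, Ghr, Mup3 and Mup20.

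Of 21 female-biased targets 6 were tested and the rest averaged under 1 FPKM over the 12 libraries. Those under the filter went both ways. Sult2a2 averaged 1.79 FPKM in HKO_PA and 1.28 FPKM in HKO_BSA, against 0.464 FPKM in Flox_PA and 0.36 FPKM in Flox_BSA. Near 0, Cyp3a41b averaged 0 FPKM in HKO_PA and 0.00936 FPKM in HKO_BSA, against 0.076 FPKM in Flox_PA and 0.343 FPKM in Flox_BSA. Sult2a1 averaged 0.0216 FPKM in HKO_PA and 0.0415 FPKM in HKO_BSA, against 0.167 FPKM in Flox_PA and 0.105 FPKM in Flox_BSA. Of the 6 tested, 5 were higher in HKO and 1 did not pass in PA (median log2 1.42), and in BSA 4 were higher and 2 did not pass (median log2 1.46). Cyp2b10, a cytochrome P450 gene, averaged 29.2 FPKM in HKO_PA and 35.7 FPKM in HKO_BSA, against 3.81 FPKM in Flox_PA and 4.52 FPKM in Flox_BSA (log2 2.66 in PA and 2.73 in BSA, limma adjusted p = 1.63e-08 and 9e-09). Cyp17a1, Cyp2a4 and Cyp2b9 were higher under each treatment too, by 1.83, 1.65 and 1.18 in PA and by 1.96, 2.15 and 0.96 in BSA on the log2 scale. Cyp17a1 reached the mean of 1 FPKM only through the HKO groups, so its place among the tested genes depended on its being high there. It averaged 3.94 FPKM in HKO_PA and 4.41 FPKM in HKO_BSA, against 0.38 FPKM in Flox_PA and 0.394 FPKM in Flox_BSA.

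The other IGF system genes gave binding proteins. Of 17 listed genes 6 were tested, and in each treatment 3 were higher in HKO and 3 did not pass (median log2 0.70 in PA and 0.57 in BSA), where 16.9% of all tested genes were higher in PA and 9.63% in BSA. Igfbp1, which encodes an IGF-binding protein known to respond to insulin and stress, measured 88.43, 63.67 and 75.25 FPKM in HKO_PA and 86.83, 65.67 and 52.96 FPKM in HKO_BSA, against 16.45, 27.53 and 22.73 FPKM in Flox_PA and 9.66, 12.45 and 11.9 FPKM in Flox_BSA. Every HKO library lay above every Flox library (log2 1.74, SE 0.21, limma adjusted p = 2.53e-05 in PA, and log2 2.47, SE 0.21, adjusted p = 5.28e-07 in BSA). Igfbp4 was higher by 1.5 in PA and 1.78 in BSA, and Igfbp2 by 1.09 and 1.1, on the log2 scale. Igfbp1 also rose with PA in Flox (log2 0.89, limma adjusted p = 0.0448), a call lost without Flox_PA 2 (0.26), Flox_PA 3 (0.167) or any of the Flox_BSA libraries (0.101 to 0.213). The receptor gene Igf1r was near 0 in every group and Igf2 was listed at 0 throughout.

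Most genes of the signalling machinery did not pass. Of 11 tested JAK kinase and receptor genes, 2 were lower in HKO in each treatment and none was higher, where 18.8% of all tested genes were lower in PA and 10.8% in BSA. In BSA Jak2, the kinase of the growth hormone receptor, was lower (1.03 FPKM in HKO against 2.18 FPKM in Flox on average, log2 -0.63, limma adjusted p = 0.00539), and the interleukin-10 receptor gene Il10rb was lower by 0.49. In PA Tyk2 was lower by 0.66 (adjusted p = 0.0337), which no longer passed without any 1 of HKO_PA 1, HKO_PA 2 or the 3 Flox_PA libraries (adjusted p from 0.0657 to 0.145), and Il10rb by 0.44, which no longer passed without HKO_PA 2 (0.0618), Flox_PA 2 (0.0639) or Flox_PA 3 (0.0787). The BSA call of Il10rb was lost without HKO_BSA 3 (0.0568) or Flox_BSA 3 (0.0567).

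Of 18 tested genes of other STATs, SOCS, PIAS and phosphatases, 7 were lower and 1 higher in HKO with PA (median log2 -0.19) and 5 lower with BSA (median log2 -0.14), where 35.7% of all tested genes passed in PA and 20.5% in BSA. Ptpn6, which encodes the phosphatase SHP-1 of blood cells, averaged 1.92 FPKM in HKO_PA and 2.3 FPKM in HKO_BSA, against 24.2 FPKM in Flox_PA and 23.2 FPKM in Flox_BSA (log2 -3.11 in PA and -2.87 in BSA, limma adjusted p = 2.02e-10 and 2.63e-10). The interferon signalling gene Stat2 was lower by 1.38 in PA and by 1.03 in BSA on the log2 scale. Macrophages express both genes too, their markers were lower in the same libraries, and their part in these differences was not tested.

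Of 10 listed genes of IL-6 family and related cytokines, 4 were tested. Lif, which encodes an IL-6 family cytokine, averaged 7.84 FPKM in HKO_PA and 7.07 FPKM in HKO_BSA, against 8.71 FPKM in Flox_PA and 8.86 FPKM in Flox_BSA, and did not pass (limma adjusted p = 0.513 in PA and 0.296 in BSA). Il1b and Tnf, which encode inflammatory cytokines, were lower in HKO in PA (log2 -2.25 and -2.30) and BSA (log2 -3.16 and -2.31). In BSA they averaged 0.537 and 0.372 FPKM in HKO, against 12.9 and 5.8 FPKM in Flox. The log2 scale understates such differences, and Tnf reached the mean of 1 FPKM through the Flox groups. Macrophage and neutrophil markers were lower in the same libraries, and their part in these differences was not tested. Clcf1 was higher in BSA (log2 0.52, limma adjusted p = 0.00798), a call lost without Flox_BSA 1 (0.0534). Il6 was under the filter, averaging 0.0772 FPKM in HKO_PA and 0.00871 FPKM in HKO_BSA, against 0.212 FPKM in Flox_PA and 0.0666 FPKM in Flox_BSA. Of 23 STAT3 and acute phase targets, all tested, 11 were lower and 2 higher in HKO with PA (median log2 -0.26), and 9 lower and 1 higher with BSA (median log2 -0.49). Lcn2, which encodes the iron carrier lipocalin 2, averaged 221 FPKM in HKO_PA and 103 FPKM in HKO_BSA, against 1710 FPKM in Flox_PA and 1630 FPKM in Flox_BSA (log2 -2.96 in PA and -3.97 in BSA, limma adjusted p = 5.9e-09 and 2.84e-10). Saa3 and Orm2 were lower too, by 3.15 and 1.92 in PA and by 2.77 and 2.71 in BSA, whereas the fibrinogen genes Fgg (log2 1.43) and Fgb (log2 0.87) were higher in PA, calls lost without HKO_PA 1 (limma adjusted p = 0.0688 for Fgg and 0.122 for Fgb). Fgb also lost its call without HKO_PA 2 (0.0525) or any of the Flox_PA libraries (0.0736 to 0.075). Hamp, which encodes the iron hormone hepcidin, was lower in HKO by 1.75 in PA and 2.75 in BSA and rose with PA in HKO (log2 3.84, limma adjusted p = 4.58e-05) and in Flox (log2 2.84, adjusted p = 0.000761). Of the 23 STAT3 and acute phase targets, 3 rose with PA in HKO and 1 fell, where 1.68% and 1.25% of all tested genes did. Those that rose were Hamp, Il1rn (log2 1.12) and Lcn2 (log2 1.08), and Lbp fell (log2 -0.61, limma adjusted p = 0.0346). The Lbp call was lost without HKO_PA 1, HKO_PA 2 or any of the HKO_BSA libraries (0.0585 to 0.116). Il1b (log2 0.91) and Tnf (log2 0.78) rose with PA in HKO as well. Tnf (log2 0.77) also rose in Flox, where that call was lost without Flox_PA 2 (0.0825), Flox_PA 3 (0.058), Flox_BSA 1 (0.0577) or Flox_BSA 3 (0.0528). The call of Il1b in HKO was lost without HKO_BSA 2 (0.067). The summed macrophage markers were 123.9 to 153.7 FPKM in HKO_PA and 84.74 to 115.8 FPKM in HKO_BSA. Of 15 tested macrophage markers, Marco (log2 0.95) and Lyz2 (log2 0.65) rose with PA in HKO. Marco lost its call without HKO_BSA 2 (limma adjusted p = 0.0545) or HKO_BSA 3 (0.0546). Lyz2 lost its call without HKO_BSA 2 (0.0984), HKO_PA 1 (0.0813) or HKO_PA 2 (0.057). The part of these markers in the rise of Il1b and Tnf was not tested. Among 14 tested liver transcription factor and corepressor genes, Cebpb (log2 -0.84) and Bcor (log2 -0.66) were lower in HKO with PA, and Foxa2 (log2 1.20) and Foxa1 (log2 0.54) were higher with BSA. The Cebpb call was lost without Flox_PA 3 (limma adjusted p = 0.0563).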

How the data were processed

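Primary hepatocyte RNA of 12 libraries, 3 in each of HKO_PA, HKO_BSA, Flox_PA and Flox_BSA, had been sequenced, per the labels' protocols after RNeasy Plus Mini Kit extraction and NEBNext Ultra library preparation. The authors deposited FPKM per gene and library, with the gene length; the genome build is GRCm38 (mm10), per the submitters' processing notes. Aligner, counter and annotation: not given in the sources used here. FPKM times length was a whole multiple of 1 step (within 0.01, up to 1000 reads) for 100% of values, which gave reads per gene.

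The 10 genes and the 16 other gene lists were chosen with earlier results of these data known. All 10 genes were to be named, and of each other list up to 4 members with the largest change among those that passed. Genes averaging 1 FPKM or more were fitted as log2(FPKM + 1) in 1 limma model of 4 group means (limma 3.58.1, R 4.3.3, variance trend), two-sided, with Benjamini-Hochberg adjustment over all genes, and the procedure was tested on simulated data. Alternatives were a pseudocount of 0.1, no filter, quantile or trimmed mean scaling, limma-voom on reads, a robust prior, array weights, only the groups compared, replicate blocks, removal of a length trend, and libraries left out. Promoter windows are RefSeq's (GRCm38.p6).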

Additional observations from a re-analysis of the deposited data

How the results depend on the processing

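Between genotypes, the numbers of the 10 genes that passed stayed within 1.5 times of 8 in PA (6 to 9) and of 5 in BSA, except for 8 in BSA with array weights. Igf1, Socs2 and Socs3 passed in every alternative under both treatments, as did Ghr, Stat3 and Bcl6 in PA. Between PA and BSA the counts depended on the setting, and the cause was not tested. In HKO the count of 0 became 3 with array weights and 1 without both HKO libraries numbered 1, and was 0 to 1 with each library left out in turn. In Flox the count of 1 became 0 with a pseudocount of 0.1, without a filter and with limma-voom, 6 with array weights, and 4 with only the groups compared or without both HKO libraries numbered 1, and was 0 to 1 with each library left out. For the interaction it became 1 with array weights. Deviations from the group means correlated at -0.243, 0.349 and -0.484 between same-numbered PA and BSA libraries of HKO and at 0.203, -0.015 and 0.316 in Flox. Between same-numbered HKO and Flox libraries they correlated at 0.276, -0.212 and 0.363 in PA and at 0.14, 0.0441 and 0.182 in BSA. With 3 libraries in a group, these values cannot show whether same-numbered libraries shared a mouse or a batch. With a replicate block, by number or by genotype and number, the Flox count was 0 (Socs3 adjusted p = 0.0641 and 0.143), and no other count of the 10 genes changed. Over all genes, the count that passed ranged from 42 to 1532 for PA in HKO (286 as reported), from 64 to 3641 for PA in Flox (215), from 2280 to 5004 for HKO against Flox in PA (3475), from 1329 to 5764 in BSA (1994) and from 0 to 1668 for the interaction (26). The highest count of each range came with array weights, which also gave the highest counts of the 10 genes. Those higher counts of the 10 genes thus came where many more of all genes passed. Limma-voom shifted the median of all genes between genotypes by -0.16 in PA and -0.13 in BSA.

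Signs turned only for values that had not passed and did not pass then either. For PA in HKO these were Ghr (-0.03 with array weights, -0.10 without both HKO libraries numbered 1), Stat5a (0.05 and 0.13) and Stat3 (0.15 and 0.22) in the same fits, Igf1 (0.10) and Socs2 (0.12) with the length trend removed, and, with 1 library left out, Stat3 (-0.44 to 0.10), Igf1 (-0.30 to 0.12), Socs2 (-0.19 to 0.09), Cish (-0.10 to 0.15) and Stat5a (-0.26 to 0.00). For PA in Flox it was Cish (-0.01 with trimmed mean scaling, -0.03 with limma-voom, -0.07 to 0.14 with 1 library left out). Between genotypes in PA it was Igfals (0.06 with quantile normalization, -0.14 to 0.16 with 1 library left out). In BSA these were Stat5a (-0.13 with limma-voom, -0.09 with array weights, -0.11 without both HKO libraries numbered 1, -0.11 to 0.12 with 1 library left out) and Stat5b (-0.02 with limma-voom, -0.07 with array weights). For the interaction they were Igf1 (-0.03) and Cish (-0.01) with array weights, Bcl6 (0.05) with the length trend removed, Ghr (-0.03) and Igf1 (-0.02) without both HKO libraries numbered 1, and Cish (-0.12 to 0.15) and Socs2 (-0.27 to 0.01) with 1 library left out.

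Read depth limits the low genes: Socs3, Stat5a and Bcl6 had as few as 48, 56 and 55 reads in a library. Groups of 3 leave every p resting on a spread shared over all 12 libraries, which was wider in HKO than in Flox.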
